A study of Mus musculus with 9 samples.

Results

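The genes described here encode the machinery with which a neuron stores neurotransmitter in vesicles, releases it and recovers the vesicle membrane. They were chosen by name, as a list of 39 mouse genes, with no measured value in the rule. Earlier results of these data were known when the list was made. All 39 were found among the 23360 genes measured. Fragments per gene were scaled together over all 9 libraries and compared between 3 groups of 3 libraries. The A1G tumours were primary medulloblastomas from mice of mixed strain with the genotype Math1-cre;A1G;Ptch1+/-. In these mice Cre recombinase is driven by regulatory sequence of Math1 (Atoh1), a gene active in granule neuron progenitors, and the labels do not spell out the A1G allele. The Ptch1 tumours came from Ptch1+/- mice of mixed strain without Cre or A1G, so both kinds of tumour carried the same loss of a Ptch1 copy. The normal tissue was cerebellum of wild type adult C57BL/6 mice, which differs from the tumours in strain as well as in kind of tissue. Ages of the tumour-bearing mice are not given in the sources used here. The study set out to describe the transcriptomes of medulloblastoma driven by ATOH1 together with aberrant Sonic Hedgehog signalling, beside tumours that arise in Ptch1+/- animals.

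A synaptic vesicle is filled with transmitter, tethered near the presynaptic membrane by the active zone, and primed when its SNARE protein pairs with SNAREs of the plasma membrane. Calcium entering the terminal binds synaptotagmin, and the SNAREs then pull the membranes together. The SNARE complex is afterwards taken apart by Nsf and its adaptors, and the vesicle membrane is recovered by endocytosis. In the cerebellum the most numerous terminals belong to granule neurons, whose proliferating progenitors are the cells from which Sonic Hedgehog medulloblastoma arises.

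The libraries held between 2350941 and 9290237 fragments, and 14337 genes passed a minimum of 1 FPKM (fragments scaled to transcript length and library size) in 3 libraries. Levels are given as counts scaled to library size (CPM, with trimmed-mean factors), and FPKM was used where genes of different length were compared. The labels call the libraries of a group replicates without saying that they came from separate animals, so p-values measure the spread between these libraries, which may be technical. The defining markers of cerebellum were present in the normal tissue: 8 mature granule neuron markers summed to 6912 to 8570 CPM there, against 199 to 1583 CPM in the 6 tumours. All 8 were lower in the tumours by the quasi-likelihood test of edgeR (p adjusted by Benjamini-Hochberg). So were 7 of 7 Purkinje cell markers, 5 of 5 tested interneuron markers and 6 of 6 oligodendrocyte markers. The interneuron marker Slc6a5 was at 0 in all 6 tumours. It passed the minimum through cerebellum alone, so the direction of its difference is not independent of the filter. The 7 proliferating progenitor markers were higher, at 2737 to 8162 CPM in tumours and 72.0 to 105 CPM in cerebellum. In the same test 21.5% of all genes were called lower and 20.7% higher. The library of A1G replicate 2 stood apart from the other tumours, with the lowest progenitor sum (2737 CPM) and the highest level in 17 of the 38 release genes tested. Its counts stood apart over all genes tested too, with Spearman coefficients of 0.887 and 0.900 with the other A1G libraries, against 0.942 between those. How often it was highest among all genes was not counted. In bulk tissue, fewer cells of a type and less RNA per cell cannot be told apart, and the part of cell composition in the values below was not tested.

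Most of the release machinery was lower in both kinds of tumour than in adult cerebellum. Of the 38 genes that passed the filter, 31 were lower in the 6 tumours, 1 was higher and 6 did not pass the threshold (adjusted p under 0.05), namely Cplx2, Syn3, Synpr, Rab3b, Unc13b and Erc2. Among all genes tested 21.5% were called lower and 20.7% higher. The median difference of the release genes was -2.36 on the log2 scale, a level 5.14-fold lower, against a median of 0.01 over all genes. Calls with a fall of 2 or more on the log2 scale were made for 23 of the 38, and for 10.1% of all genes. The tumour libraries lay wholly below the cerebellum libraries in 28 of the 38, against 19.7% of all genes. Without A1G replicate 2 the count called lower was 34 of 38, and it ran from 28 to 34 when each library was left out in turn. The remaining gene, Rimbp2, which links the active zone to calcium channels, was too scarce to be tested, at 0.822 to 8.11 CPM in tumours and 2.89 to 6.19 CPM in cerebellum.

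**Figure D1:**
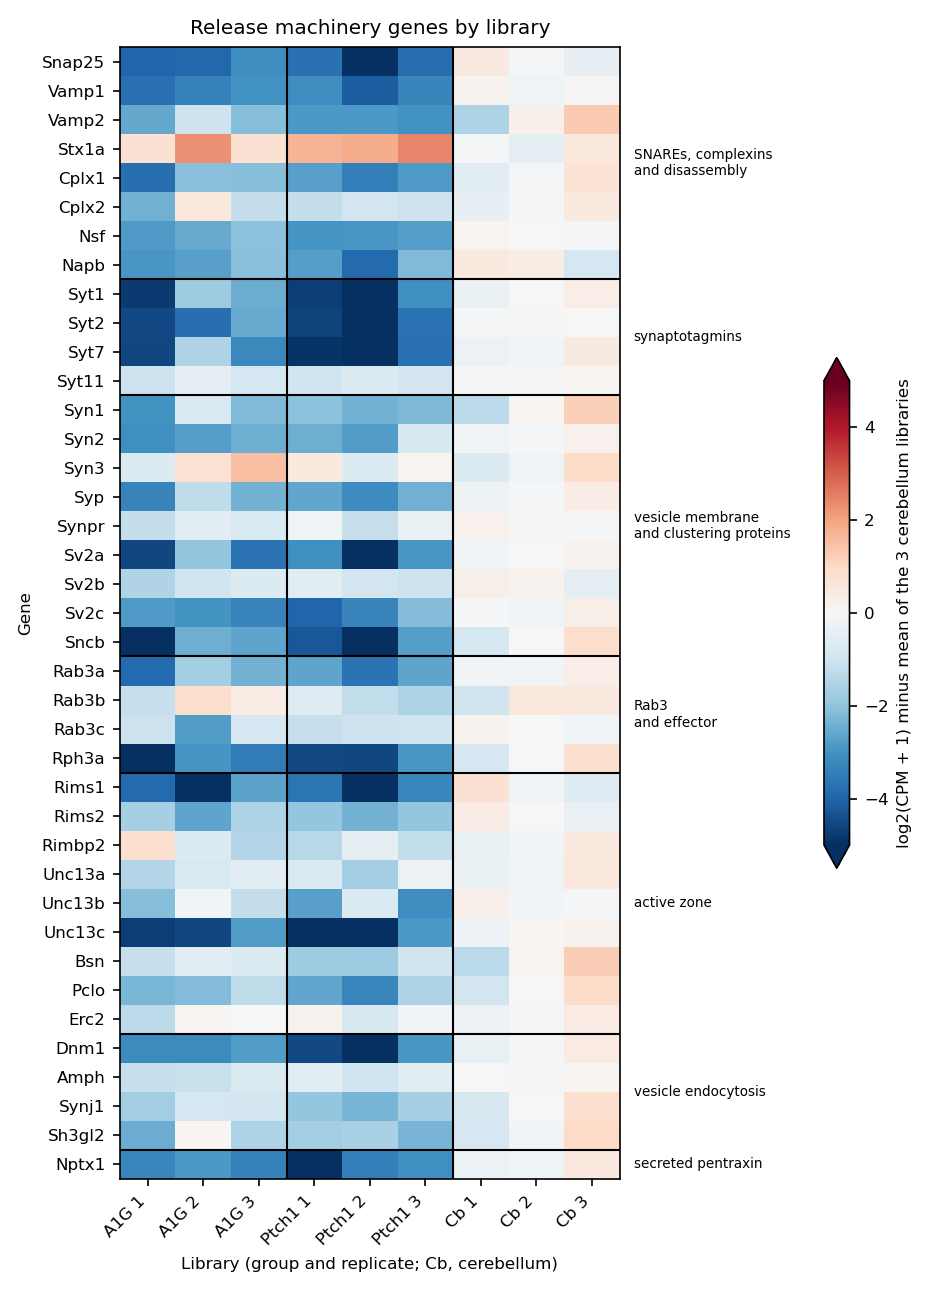
Each row is 1 of the 39 genes and each column 1 library; colour is log2(CPM + 1) minus the mean of the 3 cerebellum libraries, with the scale ending at -5 and 5. Most rows are blue across all 6 tumours, and Stx1a is the row that is red in every tumour. A1G replicate 2 is paler than its neighbours in Vamp2 and Sh3gl2, and is on the red side in Cplx2, where the other tumours are blue.

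Promoter windows from RefSeq (build GRCm38.p6, 250 bases before to 50 bases after a start site) were available for 33 of the 39 genes. They were searched on both strands for the letters TTCAGCACC and GGACAGNGC, the arms of the RE1 element to which the repressor Rest binds at many neuronal genes. TTCAGCACC occurred in 2 of the 33 genes (6.06%), Syn1 and Unc13a, and in 0.433% of 27025 genes with a window. GGACAGNGC occurred in 2 of the 33, Sv2b and Unc13a, and in 2.18% of the same 27025, which were not limited to genes tested here. The sequences that hold these letters are shown 5′ to 3′ on the strand of the gene, with the matches in capitals, because they hold the letters counted here. The Syn1 and Sv2b sequences are the 250 bases before the start site, at chrX:20920919-20921168 and chr7:75309263-75309512. The Unc13a sequence is the stretch from base 4 to base 31 of the transcript, at chr8:71671727-71671754, which holds both matches as their reverse complements. All 3 lie on the minus strand.
Syn1: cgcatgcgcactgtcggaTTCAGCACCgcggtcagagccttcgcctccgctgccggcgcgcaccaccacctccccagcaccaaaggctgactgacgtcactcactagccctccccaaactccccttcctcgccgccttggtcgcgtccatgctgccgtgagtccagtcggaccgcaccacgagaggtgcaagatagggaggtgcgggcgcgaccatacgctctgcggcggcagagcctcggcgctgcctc
Sv2b: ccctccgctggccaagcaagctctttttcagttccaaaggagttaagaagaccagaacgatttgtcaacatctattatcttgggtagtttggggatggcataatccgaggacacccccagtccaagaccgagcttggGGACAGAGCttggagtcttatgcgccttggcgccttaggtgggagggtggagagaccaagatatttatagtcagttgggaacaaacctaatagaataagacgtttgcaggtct
Unc13a: agGCGCTGTCCgcgcccccGGTGCTGAA
A match is a description of letters and not evidence of binding. Transcripts of Rest itself stood at 11.5 to 33.4 CPM in the tumours and 15.2 to 22.8 CPM in cerebellum, and the log2 difference was -0.07 (SE 0.35, adjusted p = 0.889). The 3 genes with matches are taken up with their roles below: Syn1 fell by close to the median of the list, and Sv2b and Unc13a by less.

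Of the 8 genes for SNAREs, complexins and SNARE disassembly, 6 were lower in the tumours and 1 was higher, with a median log2 difference of -2.79. Beside this and the counts for the other roles below, 21.5% of all genes were called lower and 20.7% higher. Snap25 (chromosome 2, 136713453 to 136782428, mm10), the plasma membrane SNARE that contributes 2 helices to the complex, was the most abundant release gene in cerebellum per length. Its level was 162, 167 and 295 CPM in A1G and 191, 59.3 and 183 CPM in the Ptch1 tumours, and 3505, 2504 and 1947 CPM in cerebellum. Every tumour lay far below every cerebellum library. The difference was -3.94 on the log2 scale (SE 0.37, adjusted p = 5.53e-06), or 15.3-fold lower.

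The vesicle SNAREs, or synaptobrevins, fell as well. Vamp2 (chromosome 11, 69088490 to 69092384), the form of most forebrain terminals, stood at 40.9, 121 and 55.9 CPM in A1G and at 33.0, 33.1 and 29.5 CPM in Ptch1 tumours, and at 83.8, 297 and 609 CPM in cerebellum. The cerebellum values were widely spread, and replicate 1 lay below A1G replicate 2, so the groups overlapped. Vamp2 fell by 2.77 log2 units (SE 0.47, adjusted p = 0.000488), and by 1.98 without cerebellum replicate 3. Vamp1, its paralogue of hindbrain and spinal terminals, fell by 3.50 log2 units (SE 0.27, adjusted p = 1.46e-06) without overlap.

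Stx1a (chromosome 5, 135023482 to 135051100), a plasma membrane syntaxin and the partner of Snap25, was the 1 release gene that was higher in tumours. It stood at 12.5, 37.7 and 12.7 CPM in A1G and at 24.7, 28.3 and 42.5 CPM in Ptch1 tumours, and at 6.57, 4.87 and 10.6 CPM in cerebellum. All 6 tumours lay above all 3 cerebellum libraries, by a narrow margin in A1G replicates 1 and 3. The difference was 1.80 on the log2 scale (SE 0.46, adjusted p = 0.00701).

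The complexins, which clamp and then assist the SNARE complex, were unlike each other. Cplx1 fell by 2.83 (log2, SE 0.36, adjusted p = 6.5e-05) and did not overlap between groups. Cplx2 (chromosome 13, 54371349 to 54383917) stood at 182, 1394 and 427 CPM in A1G and at 431, 508 and 471 CPM in Ptch1 tumours, and 745, 914 and 1377 CPM in cerebellum. A1G replicate 2 was the highest of all 9 libraries, and with it the difference did not pass (log2 -0.85, SE 0.46, adjusted p = 0.159). Without that library Cplx2 fell by 1.42 on the log2 scale (adjusted p = 0.00213). Nsf, the ATPase that takes SNARE complexes apart, fell by 2.69 (SE 0.21, adjusted p = 1.76e-06), and its adaptor Napb fell by 2.81 (SE 0.37, adjusted p = 8.29e-05).

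All 4 synaptotagmins were lower, with a median log2 difference of -3.53. Syt1 (chromosome 10, 108497650 to 109010982), the fast calcium sensor of most forebrain terminals, stood at 13.6, 115 and 69.9 CPM in A1G and at 14.4, 10.3 and 46.4 CPM in Ptch1 tumours, and 313, 401 and 507 CPM in cerebellum. Tumour levels varied over a wide range but stayed below cerebellum, and the log2 difference was -3.38 (SE 0.54, adjusted p = 0.000309). Syt2 (chromosome 1, 134646677 to 134762593), the corresponding sensor of hindbrain terminals, had the largest fall of the group, at -3.97 on the log2 scale (SE 0.41, adjusted p = 1.2e-05). It ran from 7.19 to 55.1 CPM in tumours and stood at 306, 337 and 327 CPM in cerebellum, where the 3 libraries were close together. Syt7, a slower sensor with higher calcium affinity, fell by 3.69 (SE 0.54, adjusted p = 0.000174) from 282, 313 and 472 CPM in cerebellum, and by 4.28 without A1G replicate 2. Its tumour levels are given with the comparison of the kinds.

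Syt11 (chromosome 3, 88744700 to 88775164) had a smaller difference. It lacks calcium binding and is not confined to synaptic vesicles. Its level was 263, 388 and 299.8 CPM in A1G and 275, 338 and 285 CPM in Ptch1 tumours and 531, 529 and 594 CPM in cerebellum. The groups did not overlap, and the difference was -0.84 on the log2 scale (SE 0.21, adjusted p = 0.0058), or 1.79-fold lower. Per length it was the most abundant of the 4 in both tissues, with a mean of 122 FPKM in cerebellum and 70.4 FPKM in tumours. Syt2 had 98.3 FPKM in cerebellum and 7.03 FPKM in tumours. These FPKM values rank genes within a tissue and are not on a common scale between the tissues.

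Of the 9 genes for proteins of the vesicle membrane and vesicle clustering, 7 were lower, with a median log2 difference of -2.32. Syp (chromosome X, 7638471 to 7653256), which encodes synaptophysin, stood at 89.6, 381 and 178 CPM in A1G and at 149, 102 and 173 CPM in Ptch1 tumours, and 764, 838 and 1171 CPM in cerebellum. A1G replicate 2 was again the highest tumour, still below cerebellum, and the log2 difference was -2.40 (SE 0.36, adjusted p = 0.000211). Sncb (chromosome 13, 54758860 to 54766595), the beta-synuclein gene, had the largest fall, at -3.85 (SE 0.73, adjusted p = 0.00106), or -4.48 without Ptch1 replicate 3. Its tumour values of 0.369, 14.7 and 12.7 CPM (A1G) and 3.43, 0.786 and 11.5 CPM (Ptch1) rested on few fragments, with 1 in A1G replicate 1, against 44.9, 82.7 and 157 CPM in cerebellum.

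The synapsins, which tether vesicles to each other and to the cytoskeleton, did not all pass the test. Syn1 (chromosome X, 20860511 to 20921004) stood at 11.1 to 55.2 CPM in tumours and at 37.6, 101 and 213 CPM in cerebellum, and fell by 2.32 log2 units (SE 0.50, adjusted p = 0.00245), or by 1.56 without cerebellum replicate 3. Cerebellum replicate 1 lay within the range of the tumours. Syn2 (chromosome 6, 115134902 to 115282006) fell by 2.27 (SE 0.37, adjusted p = 0.000385), with 26.2 to 131 CPM in tumours and 209.6, 211 and 268 CPM in cerebellum. Syn3 (chromosome 10, 86055125 to 86498896), the form known from developing neurons, stood at 25.1, 68.3 and 118 CPM in A1G and at 58.6, 24.8 and 45.2 CPM in Ptch1 tumours and 25.2, 35.0 and 77.3 CPM in cerebellum. The groups overlapped. The log2 difference was 0.25 (SE 0.47, adjusted p = 0.696), and its sign turned when A1G replicate 3 or cerebellum replicate 1 was left out.

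The Sv2 glycoproteins, which regulate release and are carried by synaptic vesicles, were all 3 lower. Sv2a fell by 3.25 (log2, SE 0.52, adjusted p = 0.000318) and Sv2c fell by 3.24 (SE 0.38, adjusted p = 3.14e-05), while the difference of Sv2b was -0.96 (SE 0.25, adjusted p = 0.00882). Synpr, a relative of synaptophysin, was 21.7 to 43.0 CPM in tumours and 46.8 to 58.6 CPM in cerebellum. Its groups did not overlap, but the difference of -0.68 (SE 0.27) did not pass the threshold (adjusted p = 0.0602). It passed without A1G replicate 2, at an adjusted p of 0.0385.

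Rab3 proteins are the small GTPases of the vesicle surface, and 3 of the 4 genes of this role were lower. Rab3a (chromosome 8, 70754679 to 70758677), the main form in brain, stood at 24.7, 117 and 72.8 CPM in A1G and at 61.6, 29.1 and 61.3 CPM in Ptch1 tumours and 336, 349.7 and 480.2 CPM in cerebellum. No tumour reached the lowest cerebellum library, and the difference was -2.69 on the log2 scale (SE 0.38, adjusted p = 0.000139). Rph3a (chromosome 5, 120940499 to 121010092), which encodes the Rab3 effector rabphilin, stood at 4.79, 25.9 and 17.3 CPM in A1G and at 8.01, 7.98 and 26.4 CPM in Ptch1 tumours and 117, 204 and 373 CPM in cerebellum. All tumours were below cerebellum, and Rph3a fell by 3.96 (SE 0.51, adjusted p = 6.06e-05). Rab3c fell by 1.23 (SE 0.33, adjusted p = 0.00938), and A1G replicate 2, high in many other genes, was the lowest tumour there at 45.5 CPM against 145 to 179 CPM in the other tumours. Rab3b (chromosome 4, 108879063 to 108943324) was scarce everywhere, at 1.15 to 10.6 CPM in tumours and 2.10, 7.91 and 7.79 CPM in cerebellum, and its difference of -0.72 (SE 0.60) did not pass (adjusted p = 0.361).

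The active zone is the protein lattice that holds vesicles at the release site, and 6 of its 8 tested genes were lower, with a median log2 difference of -1.73. Rims1 (chromosome 1, 22286251 to 22805994), a scaffold that binds Rab3 and calcium channels, stood at 19.9, 5.61 and 47.7 CPM in A1G and at 23.6, 5.28 and 31.4 CPM in Ptch1 tumours and 534, 284 and 199 CPM in cerebellum. The gap between tumours and cerebellum was wide in every library, at -3.96 on the log2 scale (SE 0.58, adjusted p = 0.000172). Its paralogue Rims2 was 4.01-fold lower (adjusted p = 9.91e-05), from 984 to 1676 CPM in cerebellum to 205 to 443 CPM in tumours.

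The Unc13 genes encode the Munc13 factors that prime vesicles, and their differences ran from the largest of the whole list to one of the smallest that passed. Unc13c (chromosome 9, 73479422 to 73968966), the form known for cerebellar granule neurons, stood at 24.3, 26.5 and 93.4 CPM in A1G and at 8.70, 2.36 and 88.5 CPM in Ptch1 tumours, and 537, 694 and 745 CPM in cerebellum. Replicate 3 of each tumour kind was several times above its group, yet every tumour lay below cerebellum, and the log2 difference was -4.07 (SE 0.78, adjusted p = 0.00111), or -5.37 without Ptch1 replicate 3. Unc13a (chromosome 8, 71624417 to 71671757), the main form in brain, stood at 88.8, 146 and 171 CPM in A1G and at 149, 75.7 and 202 CPM in Ptch1 tumours and 198, 220.1 and 356 CPM in cerebellum. Ptch1 replicate 3 reached into the cerebellum range. The difference of -0.90 (SE 0.32) passed with an adjusted p of 0.0392, and did not when any of A1G replicate 1, Ptch1 replicates 1 and 2 or cerebellum replicates 2 and 3 was left out (adjusted p = 0.0577 to 0.208), nor with limma on FPKM. Unc13b, a form with a narrower distribution, missed the threshold (log2 -1.39, SE 0.53, adjusted p = 0.0531), but passed without A1G replicate 2 or Ptch1 replicate 2 (adjusted p = 0.0176 and 0.00263). It also passed with median-of-ratios scaling, no filter, DESeq2, limma on log2(FPKM + 1) and the replicate block (adjusted p = 0.00846 to 0.0453).

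The giant scaffolds of the active zone varied widely within cerebellum itself. Pclo stood at 712, 1379.8 and 2567 CPM in cerebellum and 141 to 558 CPM in tumours, and fell by 2.26 log2 units (SE 0.42, adjusted p = 0.000999). Bsn stood at 210.4, 583 and 1251 CPM in cerebellum and 152 to 371 CPM in tumours, so that cerebellum replicate 1 lay among the tumours. Its difference of -1.47 (SE 0.42, adjusted p = 0.0129) was lost without cerebellum replicate 3 (log2 -0.69, adjusted p = 0.172) and with limma on log2(FPKM + 1) and log2(FPKM + 0.1) (adjusted p = 0.0829 and 0.0893). Erc2 (chromosome 14, 27622428 to 28478537), a scaffold that binds Rims and Bsn proteins, had the smallest difference of the role, at -0.25 (SE 0.33, adjusted p = 0.569). It stood at 36.9, 102 and 94.6 CPM in A1G and at 105, 53.0 and 83.9 CPM in Ptch1 tumours and 74.8, 85.7 and 123 CPM in cerebellum, with overlap.

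All 4 genes of vesicle endocytosis were lower, with a median log2 difference of -1.64. Dnm1 (chromosome 2, 32308471 to 32353338), the neuronal dynamin that pinches off the recovered vesicle, stood at 43.5, 43.7 and 57.6 CPM in A1G and at 16.9, 11.8 and 53.6 CPM in Ptch1 tumours and 318, 393 and 539 CPM in cerebellum. It was lower in every tumour, and fell by 3.53 log2 units (SE 0.39, adjusted p = 1.92e-05). Amph (chromosome 13, 18948205 to 19150921), which recruits dynamin to the vesicle neck, had the smallest difference, at -0.84 (SE 0.21, adjusted p = 0.00617), with 129.7, 131 and 174 CPM in A1G and 196, 144 and 203 CPM in Ptch1 tumours and 293, 268 and 306 CPM in cerebellum, without overlap. Synj1 (chromosome 16, 90936092 to 91011308), a phosphatase that strips the clathrin coat, fell by 1.70 (SE 0.32, adjusted p = 0.00106) from 99.5, 172 and 298 CPM in cerebellum. The endophilin gene Sh3gl2 fell by 1.59 (SE 0.49, adjusted p = 0.0196), but the call was lost without cerebellum replicate 3 (log2 -0.94, adjusted p = 0.177), and A1G replicate 2 at 281 CPM stood above cerebellum replicates 1 and 2 at 145 and 237 CPM.

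Nptx1 (chromosome 11, 119538719 to 119547753), which encodes a pentraxin secreted by neurons that gathers glutamate receptors at synapses, stood at 91.0, 119.8 and 84.3 CPM in A1G and at 25.2, 82.2 and 103 CPM in Ptch1 tumours and 722, 771 and 1243 CPM in cerebellum. All tumours were far below cerebellum, and Nptx1 fell by 3.46 log2 units (SE 0.36, adjusted p = 1.32e-05).

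**Figure D2:**
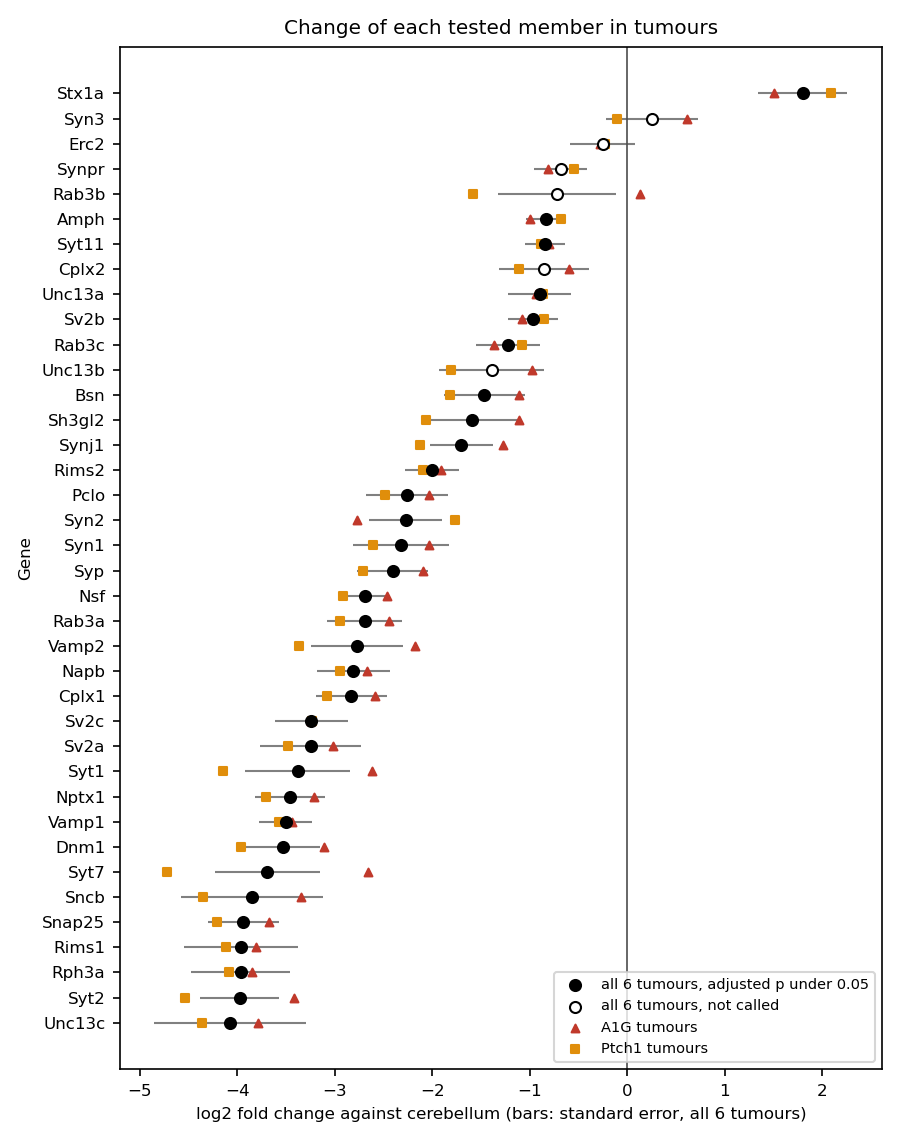
Log2 fold change against cerebellum for the 38 tested genes, in order; circles are all 6 tumours with bars of 1 standard error, filled where the adjusted p was under 0.05, and triangles and squares are the A1G and Ptch1 tumours fitted separately. Values run from -4.07 for Unc13c to 1.80 for Stx1a, and both tumour kinds lie on the same side of 0 in all genes but Syn3 and Rab3b.

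The make-up of several paralogue families was not alike in tumour and cerebellum. The share of each paralogue in the summed FPKM of its family was taken within each library, so that library scaling does not enter, and no test was run on these shares. Unc13a made up 72.7% ± 10.2 (SD, n = 6) of the Unc13 family in tumours and 26.8% ± 4.24 (SD, n = 3) in cerebellum. Unc13c led in cerebellum, with 68.5% ± 3.81 (SD, n = 3), against 17.0% ± 12.6 (SD, n = 6) in tumours. Neither share overlapped between tumours and cerebellum.

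The same held for other families. Cplx2 made up 62.3% to 83.9% of the complexin pair in tumours and 43.1% to 49.4% in cerebellum. Sv2b made up 52.1% to 89.9% of its family in tumours and 25.0% to 41.4% in cerebellum, where Sv2a was the leading form. Rims2 was 70.0% to 92.1% of the Rims pair in tumours and 43.2% to 55.1% in cerebellum. Syn3 rested at 4.39% to 6.59% of the synapsins in cerebellum and made up 11.6% to 46.6% in tumours. Synpr was 8.17% to 21.9% of its pair with Syp in tumours and 3.74% to 6.93% in cerebellum, and Bsn was 38.8% to 57.5% of its pair with Pclo against 25.5% to 35.2%. The shares of Vamp1 and Vamp2, of Syt1 and Syt2, and of the Rab3 genes overlapped between tumours and cerebellum.

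**Figure D3:**
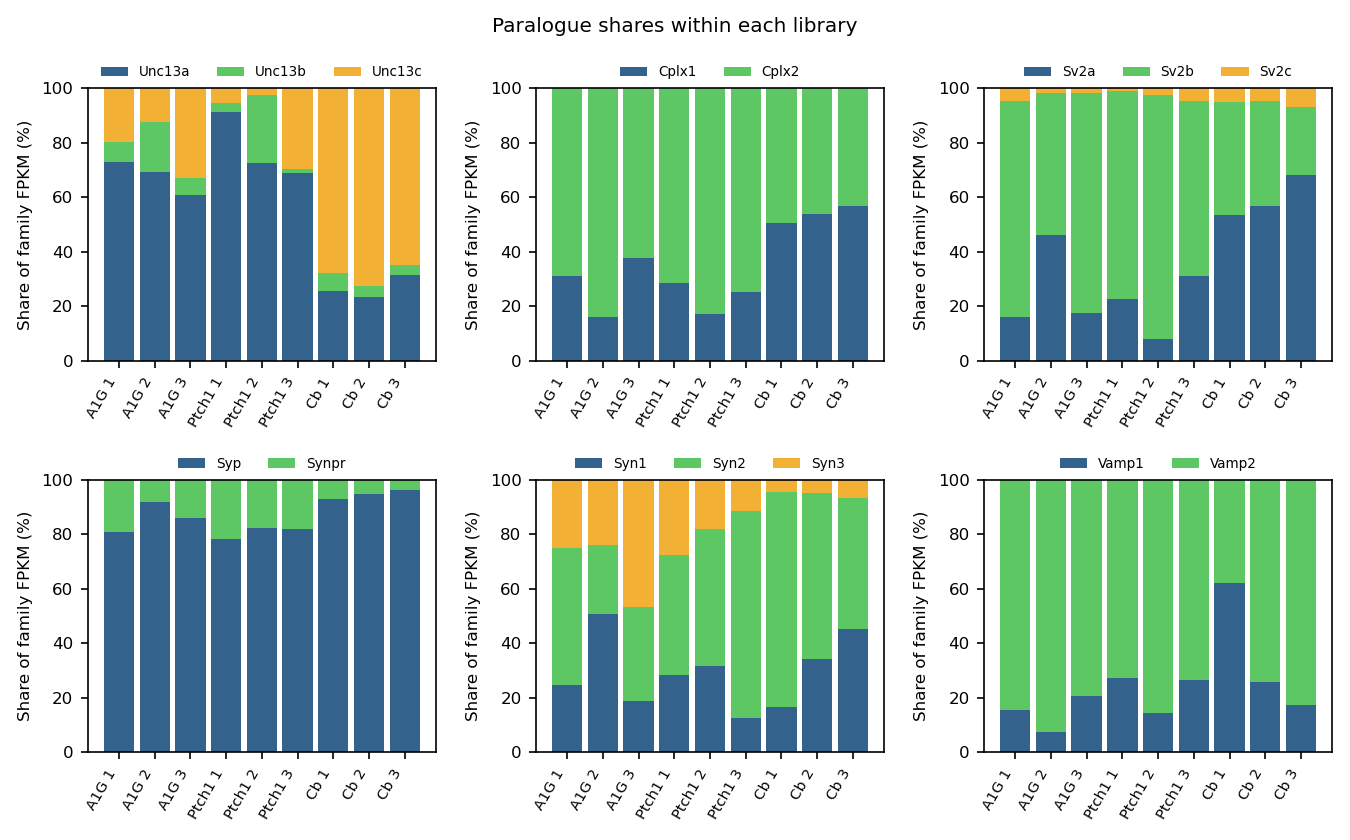
Bars give each paralogue's share (percent) of the summed FPKM of its family in each of the 9 libraries, for 6 families. Unc13c fills 65.0% to 72.5% of the bar in cerebellum (Cb) and 2.23% to 32.7% in the tumours, while the Vamp1 share varies within cerebellum from 17.4% to 62.1%.

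The order of abundance was also not the same. Ranked by mean FPKM within cerebellum, Snap25 (1340.2) was followed by Syp (393), Rab3a (303), Cplx1 (249.6) and Cplx2 (208). Within the tumours Cplx2 stood highest (121), followed by Snap25 (91.8), Syp (78.7), Syt11 (70.4) and Amph (54.3). Among the tumours the Cplx2 values ran from 38.6 to 302 FPKM and those of Snap25 from 30.0 to 152 FPKM, so these neighbours did not differ beyond their spread. A scaled fragment was worth 0.808 times as much FPKM in cerebellum as in tumours, so only the order within a tissue is given here.

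The tumour kinds were also set against cerebellum separately, with the same 3 cerebellum libraries serving both comparisons. In A1G tumours 28 of the 38 genes were lower and 1 higher (median log2 difference -2.14), where 16.1% of all genes were called lower and 16.3% higher. In Ptch1 tumours 31 were lower and 1 higher (median -2.66), where 19.7% of all genes were called lower and 20.2% higher. Bsn, Sh3gl2 and Unc13b were called lower in the Ptch1 comparison and not in the A1G comparison, but none of them passed a test of the difference between the kinds. These calls changed with single libraries. In the Ptch1 comparison the call of Bsn was lost without Ptch1 replicate 1 or 2 or cerebellum replicate 3 and with both limma settings (adjusted p = 0.0519 to 0.0801), and that of Sh3gl2 without Ptch1 replicate 3 or cerebellum replicate 3 (adjusted p = 0.0623 and 0.0873). The Ptch1 call of Unc13b was lost without A1G replicate 3, Ptch1 replicate 1 or 3 or any cerebellum library (adjusted p = 0.0539 to 0.138). In the A1G comparison Sh3gl2 was called lower without A1G replicate 2 (adjusted p = 0.00872) and Bsn without cerebellum replicate 1 (adjusted p = 0.0133). Stx1a was higher in both, by 1.51 (SE 0.50, adjusted p = 0.0355) in A1G tumours and by 2.09 (SE 0.50, adjusted p = 0.00538) in Ptch1 tumours. The A1G call rested on few libraries: it was lost without A1G replicate 2 (log2 0.77, adjusted p = 0.196) and without cerebellum replicate 1 or 2 (adjusted p = 0.102 and 0.143). Unc13a passed in neither kind alone (adjusted p = 0.0822 in A1G and 0.0922 in Ptch1 tumours).

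No release gene passed the test between the kinds of tumour, in which 0.0139% of all genes, or 2 of 14337, were called higher in A1G tumours and 0 lower. The lowest adjusted p among the 38 was 0.337. DESeq2, limma and every other alternative likewise called 0 of them. At an unadjusted p under 0.05, edgeR had 5 genes higher in A1G tumours and 1 lower, where 5.66% and 4.98% of all genes were on these sides. The standard error of the difference ran from 0.24 to 0.96 log2 units among the 38, so a miss of the threshold does not show that the kinds have equal levels. In simulated data this comparison recovered 0% of the 200 genes that were changed 2-fold.

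The fitted difference was above 0 in 29 of the 38 genes, with a median of 0.49 on the log2 scale, against 51.5% of all genes and a median of 0.02. The median ran from 0.19 to 0.77 when each library was left out, and was 0.19 without A1G replicate 2. Of the 6 genes with an unadjusted p under 0.05, 3 were calcium sensors. Syt7 (chromosome 19, 10389090 to 10453180) stood at 13.6, 118 and 36.6 CPM in the A1G kind, against 10.8, 6.07 and 25.3 CPM in the Ptch1 kind. The groups overlapped through A1G replicate 1 and Ptch1 replicate 3, and the difference was 2.06 (SE 0.68, adjusted p = 0.337 by edgeR). It was 0.90 without A1G replicate 2 and 2.76 without Ptch1 replicate 3. Syt1 differed by 1.52 (SE 0.66, adjusted p = 0.449), and by 0.86 and 2.43 without the same libraries. The difference of Syt2, at 13.3, 23.1 and 55.1 CPM against 12.1, 7.19 and 23.8 CPM, was 1.12 (SE 0.51, adjusted p = 0.460), and 0.39 without A1G replicate 3.

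The other 3 had other roles. Rab3b stood at 1.84, 10.6 and 6.99 CPM in the A1G kind and at 2.98, 1.69 and 1.15 CPM in the Ptch1 kind, a difference of 1.71 (SE 0.75, adjusted p = 0.449). Synj1 stood at 51.2, 93.6 and 90.9 CPM in the A1G kind and at 44.0, 33.3 and 53.6 CPM in the Ptch1 kind, with overlap by a small margin and a difference of 0.86 (SE 0.39, adjusted p = 0.468). Syn2 was the gene with the lower fit in A1G tumours, at 26.2, 33.1 and 41.5 CPM against 40.8, 31.8 and 131 CPM (2.01-fold lower, adjusted p = 0.467), and Ptch1 replicate 3 was the library that stood apart: without it the log2 difference was -0.11. Vamp2 was the 1 gene of the 38 whose groups did not overlap, with all 3 A1G tumours above all 3 Ptch1 tumours (difference 1.19, SE 0.58, adjusted p = 0.491, and 0.60 without A1G replicate 2), as for 6.69% of all genes. Summed markers of other cells also differed in range, without overlap for Purkinje cells and microglia and with overlap for mature granule neurons. The 7 Purkinje cell markers summed to 333 to 664 CPM in the A1G kind and to 166 to 263 CPM in the Ptch1 kind, where Pcp2 was at 0. The 5 microglia markers summed to 91.1 to 117 CPM against 53.6 to 82.2 CPM. The 8 mature granule neuron markers summed to 396 to 1583 CPM against 199 to 1292 CPM. Of the 7 Purkinje cell markers, edgeR called 1 higher in A1G tumours and had 6 higher at an unadjusted p under 0.05. For the 8 mature granule neuron markers these counts were 0 and 1. They were 0 and 3 for the 6 oligodendrocyte markers and for the 5 tested interneuron markers. For the 6 astrocyte and Bergmann glia markers they were 0 and 2, and for the 5 microglia markers 0 and 0. The 7 proliferating progenitor markers had 0 higher and 1 lower at an unadjusted p under 0.05. Over all genes the shares were 0.0139% and 5.66%. The part of these cells in the differences of the release genes was not tested.

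**Figure D4:**
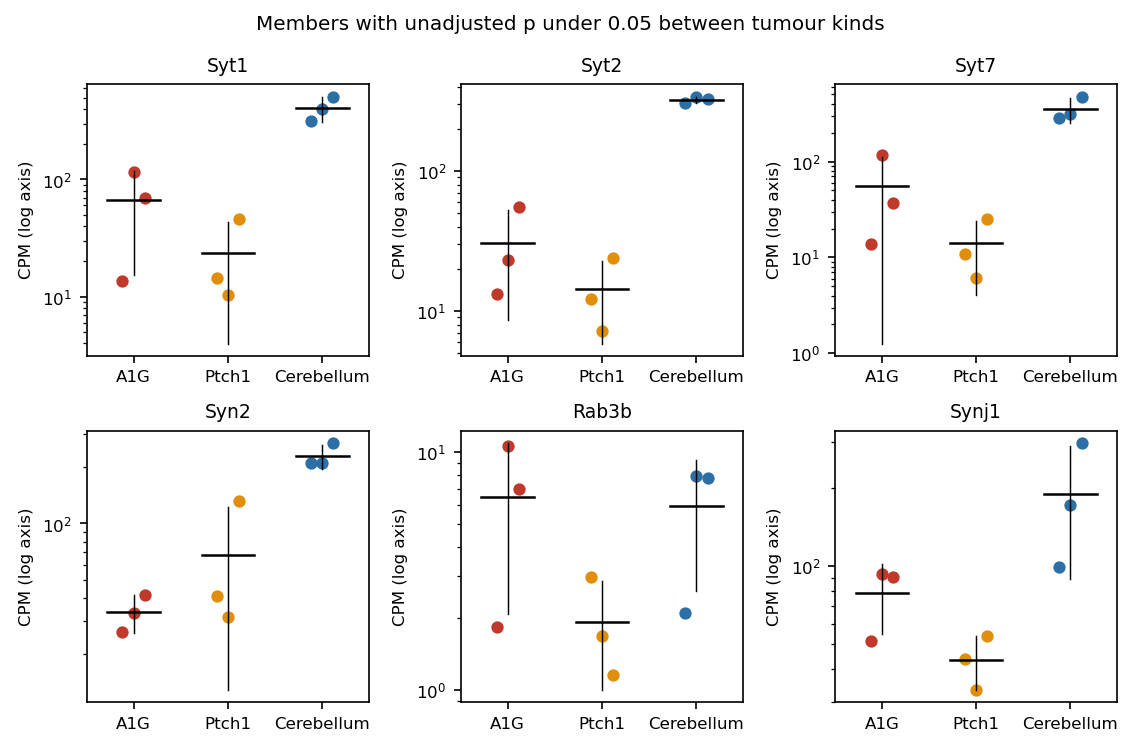
CPM on a log axis for the 6 genes with an unadjusted p under 0.05 between the tumour kinds; points are libraries, horizontal lines are group means and vertical lines 1 SD. The A1G and Ptch1 points overlap in all 6 genes, and Syt7 runs from 13.6 to 118 CPM in the A1G kind and from 6.07 to 25.3 CPM in the Ptch1 kind.

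The tumour libraries also differed within a kind. A1G replicate 1 and Ptch1 replicate 2 each held the lowest level of the 6 tumours in 15 of the 38 genes, and their mature granule neuron markers summed to 396 and 199 CPM, against 401 CPM in Ptch1 replicate 1 and 1292 to 1583 CPM in the remaining tumours. In cerebellum, replicate 3 was the highest of the 3 in 26 genes and replicate 1 the lowest in 24. Counts of highest and lowest libraries were not made over all genes, so these are not shown to be particular to the release genes. Across 12658 genes, deviations from the group mean ran with the GC content of the longest transcript, with a Spearman coefficient of 0.28 in cerebellum replicate 3, -0.19 in cerebellum replicate 1 and 0.23 in A1G replicate 2. Over the 38 release genes the coefficients were 0.47, -0.44 and 0.34. They were nearer 0 over the release genes than over all genes in cerebellum replicate 2 (-0.01 against -0.18) and Ptch1 replicate 2 (-0.0034 against -0.15), and had the same sign over both in the other 4 libraries. These are descriptions across genes that share a library, and the part of base composition in the levels was not tested.

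Other genes of release and recycling were mostly lower as well. Of 42 tested from a list of 44, 26 were lower and 3 higher in the tumours, with a median log2 difference of -1.33, where 21.5% of all genes were called lower and 20.7% higher. Slc32a1, the vesicular transporter of inhibitory neurons and a marker of them, had the largest fall, at 0.00 to 4.11 CPM in tumours and 61.7 to 198 CPM in cerebellum (log2 -7.53, SE 0.55, adjusted p = 9.45e-07). Slc17a7, the vesicular glutamate transporter of mature granule neurons, stood at 0.337 to 39.6 CPM in tumours and 308 to 639.7 CPM in cerebellum (log2 -4.62, SE 0.82, adjusted p = 0.000681). Syt10 and Syt17, further synaptotagmins, were at 0 in some tumour libraries and reached at most 0.936 and 0.624 CPM there, against 15.2 to 25.5 CPM and 2.74 to 4.20 CPM in cerebellum. Genes this scarce in tumours can pass the filter of 1 FPKM in 3 libraries through cerebellum alone. The direction of their difference is then not independent of the filter.

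The 3 that were higher, a smaller share than among all genes, included another transporter. Slc17a6, the vesicular glutamate transporter found earlier in granule neuron development, stood at 56.4, 211 and 310.1 CPM in A1G and at 332, 100.2 and 111 CPM in Ptch1 tumours and 21.5, 21.9 and 26.0 CPM in cerebellum. Every tumour lay above cerebellum, by 3.01 log2 units (SE 0.56, adjusted p = 0.00101), opposite to Slc17a7. Doc2a, a calcium sensor of spontaneous and asynchronous release, was higher by 3.37 (SE 0.45, adjusted p = 8.61e-05), at 15.3 to 41.3 CPM against 1.82 to 4.46 CPM. Nptx2, the activity-regulated relative of Nptx1, was higher by 1.61 (SE 0.48, adjusted p = 0.0174), at 6.86 to 21.8 CPM against 2.43 to 4.73 CPM. Paralogues that serve membrane traffic in most cells were also counted. Of the 16 tested, where 21.5% of all genes were called lower and 20.7% higher, 4 were lower (Synj2 -2.65, Vamp8 -1.71, Stx3 -1.67 and Stx7 -1.09 on the log2 scale), 1 was higher (Stx6, 1.48) and 11 were not called, with a median of -0.44.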

How the data were processed

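RNA of 9 samples was depleted of ribosomal RNA and sequenced on an Ion Proton, 3 libraries to a chip, per the labels' protocols; the sources used here do not say which libraries ran together. The submitters' processing notes name mm10 and Bowtie 0.12.2 without its role; the counter and annotation are not given in the sources used here. The authors deposited, per the file headers, raw fragments per gene (estimated counts, not whole for 1147 to 1440 genes a library) and FPKM. A scaled fragment was worth 0.808 times as much FPKM in cerebellum as in tumours. The deposited FPKM was therefore tested between them only in the limma alternatives, which took it without rescaling.

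Estimated counts were rounded. Genes with at least 1 FPKM in 3 libraries were fitted in edgeR 4.0.16 (R 4.3.3; TMM scaling, quasi-likelihood test, 1 mean per group, all 9 libraries, Benjamini-Hochberg over 14337 genes, threshold 0.05); the standard error is the fold change divided by the root of the F statistic. The comparison of all tumours is the mean of both tumour group means minus cerebellum. The script was tested on simulated data with 200 changed genes per fold size. Between tumour kinds the recovered share was 0% (size 2), 73% (size 4) and 97.5% (size 8). Between tumours and cerebellum it was 0%, 92.5% and 98.5% at the same sizes. A missed threshold between tumour kinds therefore says little about differences near size 2. Between tumours and cerebellum, 3082 genes were called lower and 2962 higher, far more than the 200 changed in the simulation. With fewer changed genes the Benjamini-Hochberg adjustment is stricter, so the simulated shares do not carry over to that comparison. There Syt11 was called at 1.79-fold lower, but a missed threshold still does not show equal levels. Alternatives were other scaling and filters, DESeq2 1.42.0, limma 3.58.1 on log2(FPKM + 1) and log2(FPKM + 0.1), the replicate number as a block, each library left out, and tumours alone. Deviations of same-numbered libraries correlated over 0.1 in 3 of 9 pairs. Their coefficients ran from -0.06 to 0.20, within the range of -0.23 to 0.22 for libraries of unlike number. Deviations within a group of 3 sum to 0, so this check does not show whether replicate numbers pair libraries. No 2 libraries agreed within counting noise.

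Coordinates are from GENCODE M21. RefSeq windows were matched by symbol; Syt7, Snap25, Vamp2, Syn3, Rims2 and Nptx1 had none. Members and lists were chosen with earlier results of these data known. Library values are given for Snap25, Syt1, Stx1a and Vamp2, for the extremes and the most abundant gene of each role, and for genes with an unadjusted p under 0.05 between tumour kinds; of related lists, levels are given for up to 4 genes with the largest called change a direction. Other values were chosen after they were seen. Reads shared between gene copies or strands could not be checked, since the counting is not stated.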

Additional observations from a re-analysis of the deposited data

How the results depend on the processing

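Between 28 and 34 of the 38 release genes were called lower in tumours when each library was left out in turn, and 29 to 33 under other scaling, filters and tools; Stx1a was higher in each. The median ran from -2.71 to -2.17 with a library left out. In A1G tumours against cerebellum, no release gene was called higher (0 of 38) with limma on log2(FPKM + 1) or with the replicate block, and 0 to 1 were with a library left out; Stx1a had an adjusted p of 0.0517 and 0.0522 in the first 2 of these. The median of that comparison ran from -2.67 (without A1G replicate 2) to -1.95. With the replicate block, which the data do not show to pair libraries, 32 genes were lower and 1 higher in all tumours, and 0 differed between kinds. Taken without division by length, the tumour minus cerebellum difference in share was -19.9 percentage points for Cplx1 (-27.9 with FPKM) and -14.0 for Rims1 (-30.8). The lengths used for the deposited FPKM were not checked. Syn3 ran from -0.056 (without cerebellum replicate 1) to 0.86 with a library left out, and was -0.039 without A1G replicate 3; the cause was not tested. Between kinds, DESeq2 called 107 of all genes higher and 56 lower, and edgeR without a filter 72 and 9, where the main fit called 2 and 0; no release gene was among them. Depth limits Sncb, Rab3b and Rimbp2, which had few fragments in several libraries.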

Other observations

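The release genes are long. The 38 tested span a median of 72.4 kb in GENCODE M21 on mm10, and 17 of them exceed 100 kb. The comparison set was the 12658 tested genes (88.3%) matched by name to a protein-coding gene there. Their median was 24.9 kb, and 15.4% of them exceed 100 kb. The GC content of the longest transcripts of the release genes was close to that of the comparison set, with medians of 49.3% and 49.8%. Their promoter windows held a median of 19 CpG dinucleotides in 300 bases against 7 over 27025 genes, and a median GC content of 62.0% against 52.7%. The 27025 were all genes with a window and were not limited to genes tested here. The contrast is therefore not one with other expressed genes. These are descriptions of the release genes and carry no test.

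The 6 immature granule neuron markers were Neurod1, Cntn2, Dcx, Tubb3, Nhlh1 and Sox11. They summed to 2326 to 4652 CPM in the tumours and 1191 to 2259 CPM in cerebellum. Of the 6, 3 were called higher and 3 were not called, where 20.7% of all genes were called higher. The fitted difference was below 0 in 1 of the 6.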
